A study of Homo sapiens with 6 samples.

Results

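The genes that build, transfer, trim and branch asparagine-linked (N-linked) glycans were followed in a comparison of lung cancer cells with and without knockdown of the phosphatase PPM1G. The set held 45 genes, taken by symbol and sorted by step of the pathway, out of 17534 genes in the deposited count table. All 45 were in the table. The cells were NCI-H1703, labelled as a line of lung squamous cell carcinoma. Messenger RNA was sequenced from 3 control libraries, whose genotype is given as Sh-NC, and 3 libraries of cells with a short hairpin RNA (shRNA) that targets PPM1G. The series text calls the controls wild-type, so whether they carry a non-targeting hairpin is not settled by the labels. How many hairpins or clones were used, and whether the libraries came from separate cultures, is not given, so every p-value reflects the spread of these libraries alone, which may be technical. Each group's cells were grown to near confluence, and no further treatment is named.

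N-glycosylation starts on the lipid dolichol in the membrane of the endoplasmic reticulum (ER). Enzymes on the cytosolic face, and then in the lumen, add N-acetylglucosamine, mannose and glucose to dolichol pyrophosphate, and the oligosaccharyltransferase (OST) moves the finished glycan onto asparagines of newly made proteins. Glucosidases and mannosidases then trim it, and Golgi enzymes add branches, fucose, galactose and sialic acid, so that the surface glycans of a cell depend on the last enzymes of the route. OST exists in a form with STT3A, which works at the translocon as proteins enter the ER, and a form with STT3B, which carries TUSC3 or MAGT1 and also reaches sites that were skipped.

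Library totals were 31337553 to 35838246 counts, and 42 of the 45 genes had at least 20 counts in every library. Levels within a gene are given as counts scaled to the library total with edgeR's TMM factors (CPM). PPM1G was at 333, 308 and 324 CPM in control libraries 1 to 3 and at 182, 194 and 188 CPM in shRNA libraries 1 to 3. The groups did not overlap, and the shRNA level was 0.585 of the control level (log2 fold change −0.77 ± 0.03, SE; edgeR adjusted p = 3.3e-20). Of 6 squamous markers in the table, KRT6A, KRT14, DSG3 and PKP1 were at or near 0, with 0 to 7 counts, and TP63 had 21 to 60, while SOX2 had 747 to 841 counts in control and 323 to 417 in shRNA libraries. The list summed to 23.0 to 26.3 CPM in controls and 11.1 to 12.3 CPM in shRNA libraries. Of 4 markers of lung adenocarcinoma and alveolar cells, NKX2-1 had 3639 to 4417 counts in all libraries, NAPSA went from 68 to 83 in controls to 721 to 803 in shRNA libraries, and the surfactant genes SFTPB and SFTPC had 0 to 3. The keratins KRT8 and KRT18 together with EPCAM and CDH1 summed to 316 to 338 CPM in control and 299 to 319 CPM in shRNA libraries. This sum was mostly keratin and hid opposite moves. KRT8 went from 210 to 222 CPM in controls to 182 to 194 CPM in shRNA libraries. KRT18 went from 96.1 to 103 CPM to 106 to 117 CPM. EPCAM had 339 to 439 counts over all libraries, and CDH1 only 6 to 16. The leukocyte markers PTPRC and CD3E had 0 to 5 counts, while CD68, which cells of many types make in lysosomes, stood at 1244 to 1301 CPM in control and 551 to 583 CPM in shRNA libraries. The endothelial and fibroblast lists each held 1 gene that rose and 1 that fell. PECAM1 fell from 161 to 219 counts in controls to 31 to 49 in shRNA libraries, VWF rose from 11 to 23 to 82 to 105, and CDH5 had 0 to 3. COL1A1 rose from 5081 to 5676 counts to 11317 to 12666, COL1A2 fell from 188 to 256 to 111 to 161, and DCN and LUM had 0 to 15. The part of these markers in the results was not tested, and in bulk RNA fewer cells of a kind and less RNA per cell cannot be told apart.

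Most N-glycan genes fell in the shRNA libraries, with the largest falls in the branching enzyme MGAT5, the enzymes ALG8 and ALG10 that finish the glycan on dolichol, core fucosyltransferase FUT8, and STT3A and RPN2 of the OST. Of 43 genes with enough counts to test, 30 fell, 7 rose and 6 were not called at an adjusted p under 0.05 (quasi-likelihood test of edgeR, Benjamini-Hochberg adjustment over all 13060 genes tested). Over all tested genes, 82.9% were called, 41.3% fell and 41.5% rose, so the call itself was common. The share that fell was 69.8% of the N-glycan genes, and the share that rose was 16.3%. A fall of at least 2-fold was seen in 10 genes (23.3%), against 12.4% of all tested genes, and a rise of that size in 0, against 11.8%. In either direction, 24.2% of all tested genes passed that size. The median log2 fold change was −0.43 for the 43 genes and 0.01 for all tested genes, whose quartiles were −0.53 and 0.55. The libraries of the groups did not overlap for 38 of the 43 genes, compared with 83.7% of all tested genes, and 16 of the calls were of changes below 1.5-fold. MAN1C1 and MGAT3 had at most 5 counts in any library and were not tested. The members were named as a set with results of these libraries already known, so their counts are a description and carry no test of the set.

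**Figure D1:**
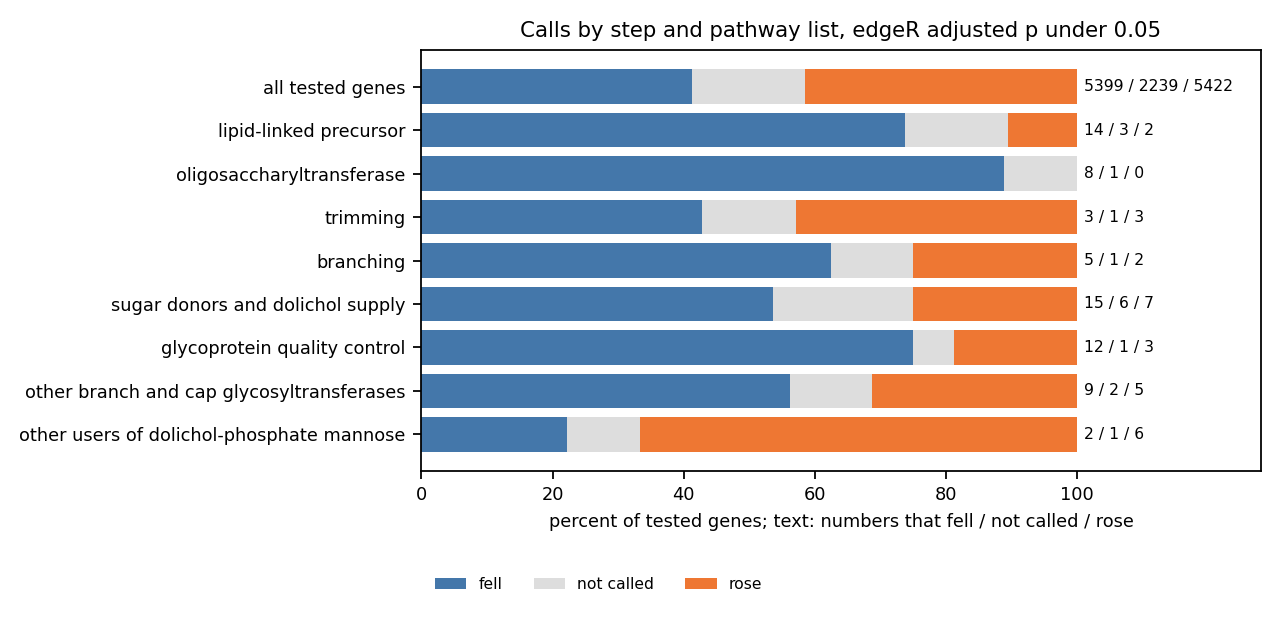
Percent of tested genes that fell (blue), were not called (grey) or rose (orange) at an edgeR adjusted p of 0.05, for all tested genes, the 4 steps of the pathway and other lists of the pathway. The OST bar has 8 falls and no rise among 9 genes, whereas trimming has 3 of each among 7.

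A stretch from the 250 bases before an annotated start is shown for 4 genes, because these genes mark the contrasts described further on. MGAT5 had the largest fall and MGAT4B the largest rise, and STT3A is the catalytic subunit of OST with the larger fall. ALG12 alone among the 37 members with a promoter entry holds a complete ER stress element. The stretches come from RefSeq on GRCh38.p14, are written 5′ to 3′ on the strand of the gene, and were shortened where annotated exons reach into the 250 bases before the start. Capitals mark matches, on either strand, to the CCAAT box (CCAAT, or ATTGG on the other strand), the GC box (GGGCGG, or CCGCCC on the other strand) and, in ALG12, the ER stress element (CCAAT, then 9 bases, then CCACG), whose first letters are also a CCAAT box.
MGAT5, chr2:134119685-134119934, plus strand: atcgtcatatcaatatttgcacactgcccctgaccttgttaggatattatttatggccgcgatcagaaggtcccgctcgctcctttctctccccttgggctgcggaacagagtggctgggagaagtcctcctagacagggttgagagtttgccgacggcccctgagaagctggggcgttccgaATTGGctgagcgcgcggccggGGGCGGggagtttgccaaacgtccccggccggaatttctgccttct
MGAT4B, chr5:179806953-179807116, minus strand: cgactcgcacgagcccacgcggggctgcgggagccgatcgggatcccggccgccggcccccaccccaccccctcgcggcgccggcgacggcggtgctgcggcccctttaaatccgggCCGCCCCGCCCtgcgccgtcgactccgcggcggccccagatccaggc
STT3A, chr11:125592602-125592794, plus strand: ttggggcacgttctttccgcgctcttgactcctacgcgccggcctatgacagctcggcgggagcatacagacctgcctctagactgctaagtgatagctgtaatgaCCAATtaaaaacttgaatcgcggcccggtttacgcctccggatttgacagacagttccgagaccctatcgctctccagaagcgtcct
ALG12, chr22:49918459-49918634, minus strand: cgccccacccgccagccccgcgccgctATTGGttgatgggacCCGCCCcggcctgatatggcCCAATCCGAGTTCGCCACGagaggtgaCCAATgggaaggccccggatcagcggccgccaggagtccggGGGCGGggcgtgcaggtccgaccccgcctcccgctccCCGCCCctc
The stretch before MGAT5 holds a CCAAT box and a GC box, that before STT3A a CCAAT box, and that before MGAT4B overlapping GC boxes. MGAT5 and MGAT4B each have another start, not shown, whose window holds neither box. The STT3A stretch ends 58 bases before the start, which leaves out a match to ATTGG at 57 to 53 bases. The MGAT4B stretch ends 87 bases before the start, which leaves out a GC box at 57 to 52 bases. The STT3A window precedes a start inside the annotated span of the gene, and the MGAT4B stretch lies within the annotated span of SQSTM1, a neighbouring gene described with the branching enzymes.

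Of the 45 genes, 37 had an entry in the RefSeq promoter table, with 61 windows of 250 bases, since a gene can have several starts. The ER stress element, the pattern bound by ATF6 with NF-Y, was in 1 of the 61 windows and in 0.0740% of all 35116 windows of that length. The XBP1 and ATF6 pattern TGACGTGG and the ATF4 pattern TGATGNAAT were in 0 of the 61 windows, against 0.612% and 0.888% of all windows. CCAAT was in 36.1% of the windows of N-glycan genes and in 32.0% of all windows, and GGGCGG in 62.3% and 42.6%. Among the 15585 windows of tested genes, GGGCGG was in 61.7% and CCAAT in 33.1%, which is nearer to the shares among the members' windows. In those windows the ER stress element was in 0.115%, TGACGTGG in 0.648% and TGATGNAAT in 0.539%. For patterns this rare, 0 or 1 match in 61 windows shows no difference. These are matches of letters in a short window, on both strands.

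The steps that assemble the glycan on dolichol showed falls at the supply of the carrier and of its sugars and, above all, at the last additions in the lumen. In all, 14 of 19 genes fell (73.7%, against 41.3% of all tested genes), 2 rose (10.5%, against 41.5%) and 3 were not called. The median log2 fold change was −0.41. The 3 genes that provide dolichol phosphate all fell, each by less than 2-fold. SRD5A3, which reduces polyprenol to dolichol, had a log2 fold change of −0.49 ± 0.09, DOLK, the kinase that phosphorylates dolichol, −0.35 ± 0.07, and DOLPP1, which recycles dolichol pyrophosphate, −0.60 ± 0.06.

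Dolichol-phosphate mannose is made by a synthase of 3 subunits, and these did not move together. Its catalytic subunit DPM1 was at 45.9, 47.4 and 46.2 CPM in controls and 43.6, 47.5 and 46.0 CPM in shRNA libraries, and the groups overlapped (log2 fold change −0.02 ± 0.05; edgeR adjusted p = 0.65). DPM2, a membrane subunit that steadies the enzyme, went from 115, 107 and 114 CPM to 54.5, 53.7 and 54.5 CPM, with every shRNA library below every control (−1.04 ± 0.04; edgeR adjusted p = 3.7e-21). DPM3, which tethers the catalytic subunit, fell from 12.3, 11.6 and 14.5 to 7.60, 7.92 and 6.52 CPM (−0.80 ± 0.10). ALG5, which makes the glucose donor dolichol-phosphate glucose, fell by a small amount (−0.27 ± 0.08). DPM1, DPM2, DPM3 and ALG5 are in the shortest of 10 classes of gene length, 303 to 1567 bases, where the median log2 fold change of all tested genes was −0.26, against −0.07 to 0.11 in the other classes. Less that median, DPM1 was at 0.23, DPM2 at −0.78, DPM3 at −0.54 and ALG5 at −0.01 on the log2 scale.

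On the cytosolic face the early enzymes moved in different directions and mostly by little. DPAGT1, which starts the chain and is the target of tunicamycin, fell (−0.19 ± 0.04). It shares its locus with H2AX, a histone gene at 112 to 125 CPM in controls and 15.6 to 16 CPM in shRNA libraries, and where counting ignored strand, reads of the overlap cannot be assigned. ALG14, the membrane anchor of the enzyme that adds the next N-acetylglucosamine, fell from 8.96, 7.34 and 9.03 CPM to 4.54, 4.19 and 5.01 CPM (−0.88 ± 0.12). Its catalytic partner ALG13 was not called (0.07 ± 0.05, edgeR adjusted p = 0.14), although its groups did not overlap. ALG13 was called higher with library totals (0.17, edgeR adjusted p = 0.0010), with upper-quartile scaling and in both limma fits. The mannosyltransferases ALG1 and ALG2, which add the first mannoses, rose slightly. ALG1 went from 29.2, 27.7 and 29.2 to 32.0, 31.6 and 33.9 CPM (0.18 ± 0.06) and ALG2 from 49.8, 48.7 and 46.2 to 52.8, 51.0 and 57.6 CPM (0.16 ± 0.05), without overlap of the groups. Without shRNA library 3, ALG2 was no longer called (0.11; edgeR adjusted p = 0.076), and with plain library totals in place of TMM the fall of DPAGT1 was not either (−0.09; edgeR adjusted p = 0.054). ALG11, which completes the cytosolic mannoses, fell (−0.47 ± 0.14) at 3.46 to 5.25 CPM. It overlaps the coding gene UTP14C, and the part of UTP14C reads in the ALG11 value was not tested.

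In the lumen, the first and the last enzymes fell most. ALG3, which adds the first lumenal mannose, was at 62.7, 57.2 and 60.2 CPM in controls and 28.3, 27.0 and 28.8 CPM in shRNA libraries (−1.10 ± 0.05; edgeR adjusted p = 3.1e-19), with no overlap. The later mannosyltransferases changed little. ALG9 was at 43.7, 42.0 and 39.9 and 40.9, 37.7 and 37.1 CPM with overlapping groups, and its call (−0.12 ± 0.05; edgeR adjusted p = 0.038) was lost in DESeq2 (adjusted p = 0.061) and in 9 other alternatives. ALG12 was not called (0.12 ± 0.07; edgeR adjusted p = 0.12), although it was called higher with library totals (0.22; edgeR adjusted p = 0.0058). It was also called higher with upper-quartile scaling, in both limma fits and without control library 3. ALG12 overlaps the coding gene ZBED4, which fell from 21.5 to 22.3 CPM in controls to 6.74 to 8.37 CPM in shRNA libraries. The part of ZBED4 reads in the ALG12 value was not tested. The glucosyltransferases that cap the glycan all fell. ALG6 fell modestly, from 22.1, 22.9 and 22.4 to 17.2, 17.3 and 16.3 CPM (−0.41 ± 0.07). ALG8 (chromosome 11, 78100946 to 78139626 on GRCh38), which adds the next glucose, was at 58.6, 60.2 and 63.2 CPM in controls and 21.4, 19.3 and 20.4 CPM in shRNA libraries. The shRNA libraries were all far below the controls, at 0.335 of their level (−1.58 ± 0.05; edgeR adjusted p = 8.2e-23). ALG10 (chromosome 12, 34022377 to 34028302), which adds the last glucose that OST recognises, went from 41.5, 40.2 and 40.5 to 14.3, 14.8 and 13.1 CPM (−1.53 ± 0.07; edgeR adjusted p = 2.2e-20). ALG10 has a near-identical copy, ALG10B, which stood at 52.6, 55.0 and 51.1 CPM in controls and 22.7, 21.3 and 21.5 CPM in shRNA libraries (−1.28 ± 0.05), and how the authors' counting split reads between them is not given.

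**Figure D2:**
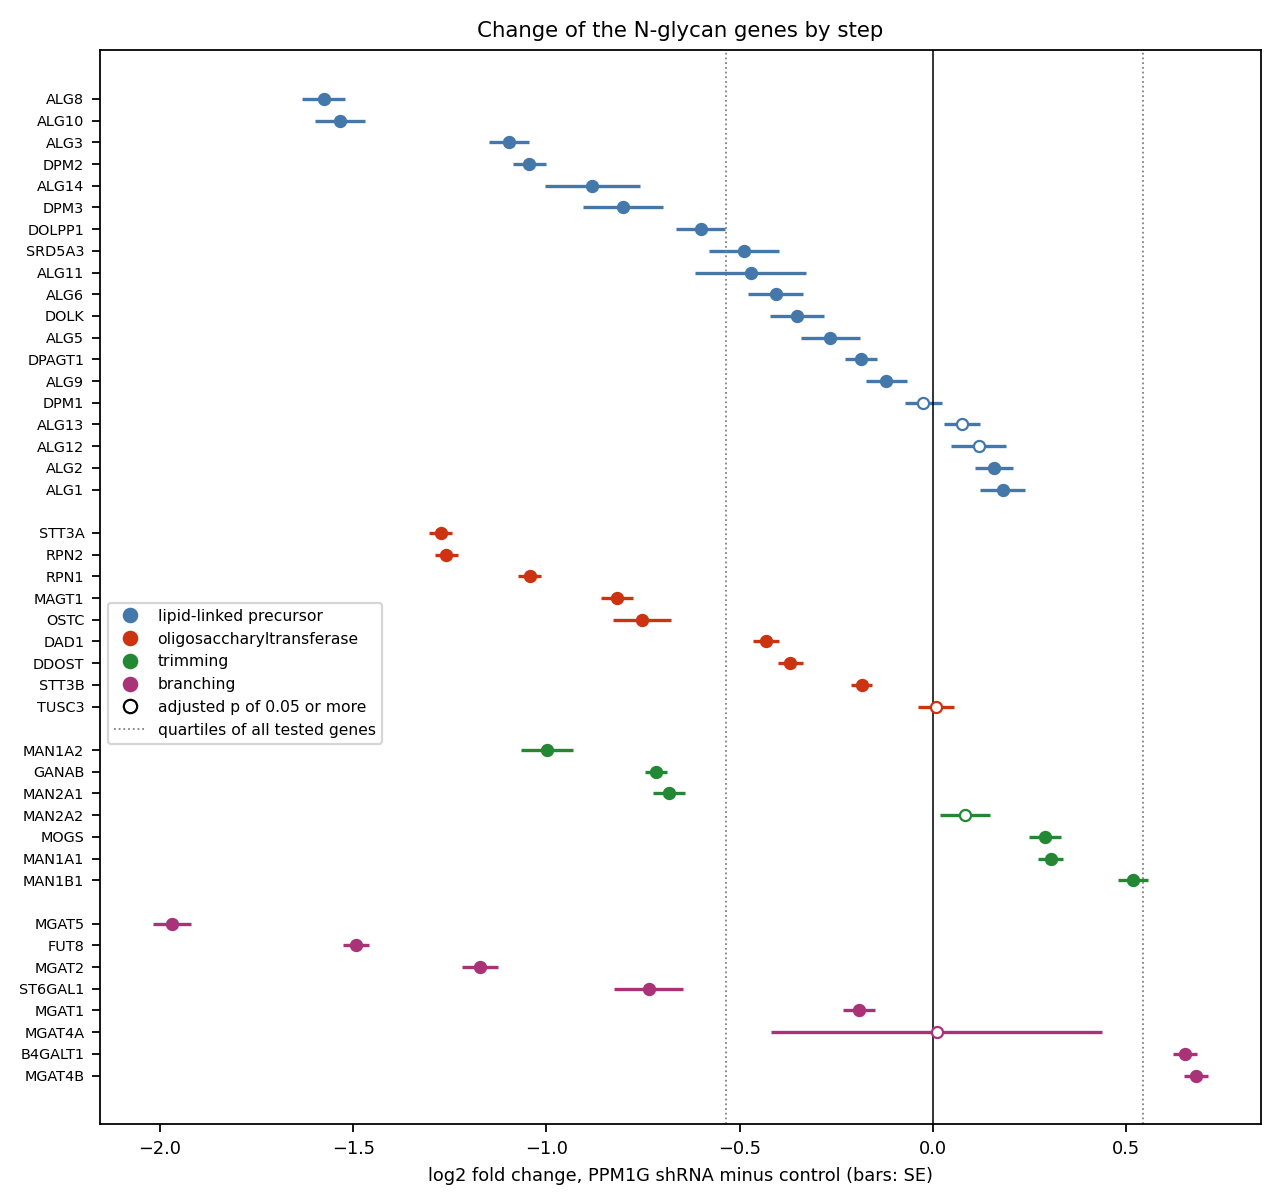
Log2 fold change of each of the 43 tested genes, PPM1G shRNA minus control, with its SE as a bar, grouped by step; open points did not pass the edgeR threshold, and dotted lines are the quartiles of all tested genes. MGAT5 lies farthest to the left and MGAT4B and B4GALT1 farthest to the right, while the trimming genes lie on both sides of 0.

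The OST transcripts fell by very different amounts. Of 9 genes, 8 fell (88.9%, against 41.3% of all tested genes) and 0 rose (against 41.5%). The median log2 fold change was −0.75. STT3A (chromosome 11, 125591769 to 125623091), the catalytic subunit of the translocon-bound complex, was at 411, 412 and 417 CPM in controls and 168, 174 and 171 CPM in shRNA libraries. The replicates lay close together and the groups far apart, with shRNA at 0.414 of control (log2 fold change −1.27 ± 0.03; edgeR adjusted p = 1.2e-27). STT3B (chromosome 3, 31532925 to 31637616), its paralog in the other complex, was at 419.8, 426 and 417 and 372, 374 and 366 CPM, again without overlap but with shRNA at 0.880 of control (−0.18 ± 0.03; edgeR adjusted p = 3.1e-07).

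The ribophorins, structural subunits of both complexes, changed in the manner of STT3A in size. RPN1 went from 342, 343 and 352 CPM to 167, 171 and 165 CPM (−1.04 ± 0.03; edgeR adjusted p = 4.8e-25). RPN2 (chromosome 20, 37179330 to 37241619) went from 438, 439 and 446 to 187, 181 and 185 CPM (−1.26 ± 0.03; edgeR adjusted p = 1.2e-27). The other core subunits fell less: DDOST, the OST48 subunit, fell from 226, 221 and 239 to 177, 178 and 176 CPM (−0.37 ± 0.03), and DAD1, named for its part in cell survival, from 178, 178 and 187 to 137, 129 and 137 CPM (−0.43 ± 0.03). OSTC, the subunit that links the STT3A complex to the translocon, fell from 24.8, 29 and 28.4 to 15.2, 16.2 and 17.4 CPM (−0.75 ± 0.07). DAD1 and OSTC are in the shortest length class too, and less its median they were at −0.17 and −0.49 on the log2 scale.

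The oxidoreductase subunits of the STT3B complex, which can stand in for each other, differed. MAGT1 was at 104, 108 and 101 CPM in controls and 57.3, 58.9 and 61.4 CPM in shRNA libraries (−0.82 ± 0.04; edgeR adjusted p = 3.4e-18). TUSC3 was at 52.9, 56.3 and 57.9 and 54.7, 58.2 and 55.1 CPM, with overlapping groups and no call (0.01 ± 0.05; edgeR adjusted p = 0.87). With library totals TUSC3 was called higher (0.11; edgeR adjusted p = 0.034). Neither MAGT1 nor TUSC3 is a subunit of the STT3A complex, so the falls were not confined to that complex.

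**Figure D3:**
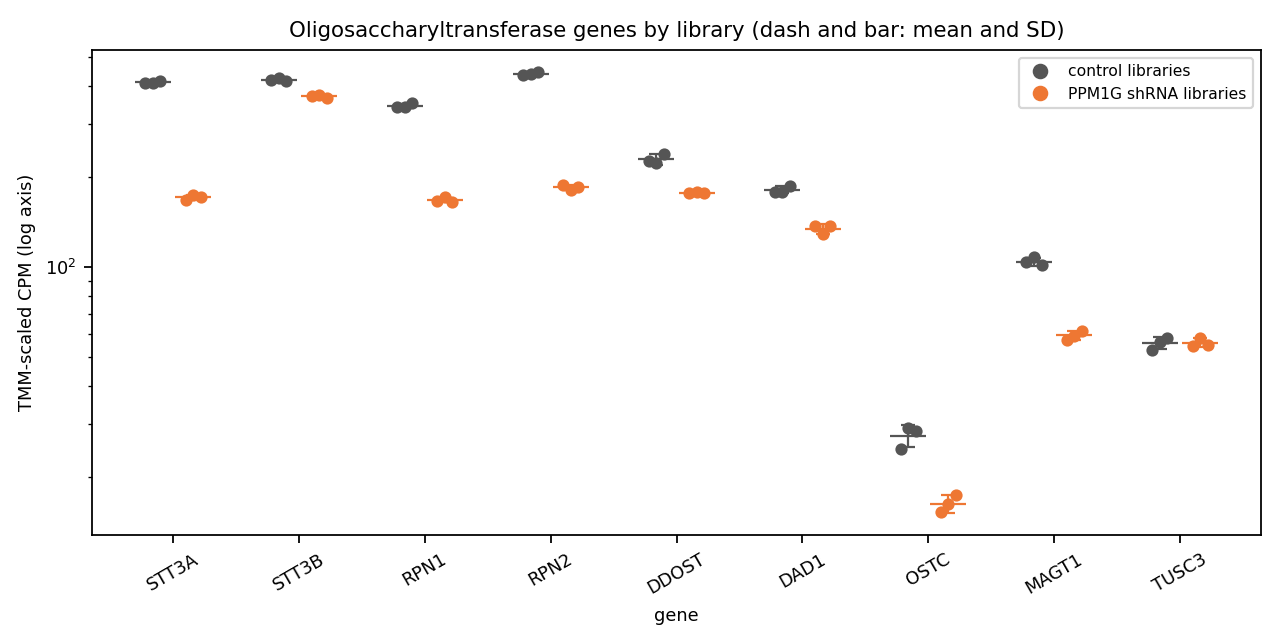
CPM of the 9 OST genes on a log axis in each of the 6 libraries; points are libraries, the dash is the group mean and the bar its SD. STT3A, RPN1 and RPN2 are at 342 to 446 CPM in controls and 165 to 187 CPM in shRNA libraries, while STT3B is at 366 to 426 CPM over both groups and the TUSC3 groups overlap.

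Levels were compared between genes as FPKM, counts scaled by gene length and library total, as the authors deposited them. In controls the ratio of STT3A to STT3B was 2.06, 2.03 and 2.11, and in shRNA libraries 0.947, 0.980 and 0.983. The catalytic transcript of the STT3A complex thus went from 67.4 ± 0.403% (SD, n = 3) of the STT3 sum to 49.2 ± 0.509%. The MAGT1 to TUSC3 ratio went from 3.79 ± 0.231 to 2.14 ± 0.106 (SD, n = 3 each), also without overlap. No test was made of these ratios.

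The trimming enzymes rose and fell in shares near those of all tested genes. Of 7 tested genes, 3 rose (42.9%, against 41.5% of all genes), 3 fell (42.9%, against 41.3%) and 1 was not called, and the median log2 fold change was 0.08. The glucosidases that act first after transfer moved in opposite directions. MOGS, glucosidase I, which removes the outermost glucose, was at 75.2, 71.9 and 78.6 CPM in controls and 92.8, 91.9 and 91.4 CPM in shRNA libraries, higher in all 3 (0.29 ± 0.04; edgeR adjusted p = 1.1e-07). GANAB, the catalytic subunit of glucosidase II, which removes the inner glucoses and so times release from the calnexin cycle, was at 643, 657 and 684 CPM in controls and 406, 402 and 400.0 CPM in shRNA libraries, lower in all 3 (−0.72 ± 0.03; edgeR adjusted p = 2.1e-21).

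Among the mannosidases, paralogs differed in direction. MAN1B1, an ER mannosidase also used in disposal of misfolded glycoproteins, was at 84.6, 87.7 and 92.1 CPM in controls and 129, 124 and 126 CPM in shRNA libraries (0.52 ± 0.04). MAN1A1, a Golgi mannosidase I, rose from 218, 226 and 208 to 269.8, 265 and 269.9 CPM (0.30 ± 0.03), while its paralog MAN1A2 fell from 43.9, 41.8 and 35.8 to 19.7, 20.2 and 20.9 CPM (−1.0 ± 0.07). All 3 changes passed the edgeR threshold without overlap of the groups. The FPKM ratio of MAN1A1 to MAN1A2 went from 8.92 ± 0.684 to 21.9 ± 0.682 (SD, n = 3 each). As a share of the FPKM of MAN1A1, MAN1A2, MAN1B1 and MAN1C1 together, MAN1A1 hardly moved. It was at 58.4 ± 1.35% in controls and 57.4 ± 0.243% in shRNA libraries (SD, n = 3 each), with overlapping groups. MAN1C1, the third Golgi paralog, had 0 to 4 counts. MAN2A1, a Golgi mannosidase II that prepares the glycan for the second branch, fell from 102, 99.4 and 92.6 to 62.0, 60.0 and 60.9 CPM (−0.68 ± 0.04). Its paralog MAN2A2 was not called at 25.4, 25.4 and 23.8 and 27.0, 25.7 and 26.3 CPM (0.08 ± 0.06, edgeR adjusted p = 0.22). With library totals (0.18, edgeR adjusted p = 0.0093) and in both limma fits, MAN2A2 was called higher. The MAN2A1 to MAN2A2 ratio of FPKM went from 4.58 ± 0.0605 to 2.69 ± 0.0222 (SD, n = 3 each).

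The branching and capping enzymes showed the largest fall and the largest rises of the whole set. Of 8 tested genes, 5 fell (62.5%, against 41.3% of all tested genes), 2 rose and 1 was not called. The share that rose was below the 41.5% of all tested genes. The share called in either direction was 87.5%, near the 82.9% of all tested genes. The median log2 fold change was −0.46. MGAT1, which starts the first antenna and commits a glycan to the hybrid or complex form, changed little, from 80.6, 76.7 and 81.1 to 69.8, 70.1 and 68.8 CPM (−0.19 ± 0.04), and limma on log2(FPKM + 1) did not call it (adjusted p = 0.072). MGAT2, which starts the second antenna, was at 84.1, 77.9 and 81.3 CPM in controls and 36, 37.4 and 34.6 CPM in shRNA libraries (−1.17 ± 0.05; edgeR adjusted p = 4.8e-21).

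MGAT5 (chromosome 2, 134119935 to 134454621), which adds the β1,6 branch found on many cancer cell glycoproteins, was at 85.4, 87.4 and 81.5 CPM in controls and 22.1, 22 and 20.8 CPM in shRNA libraries. Every shRNA library was well below every control, and the level was 0.255 of control (−1.97 ± 0.05; edgeR adjusted p = 1.1e-26). FUT8 (chromosome 14, 65356842 to 65744121), the only enzyme known to add the core fucose, went from 219, 223 and 218 to 79.7, 78.6 and 76.5 CPM (−1.49 ± 0.03; edgeR adjusted p = 9.2e-28). ST6GAL1, which caps antennae with α2,6-linked sialic acid, fell from 13.6, 15.5 and 15.0 to 8.87, 8.62 and 8.99 CPM (−0.74 ± 0.09).

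MGAT4B (chromosome 5, 179797597 to 179806866), which adds the β1,4 branch on the first antenna, went the other way, from 205, 204 and 215 CPM in controls to 337, 322 and 342 CPM in shRNA libraries (0.68 ± 0.03; edgeR adjusted p = 1.9e-19). MGAT4B overlaps SQSTM1, the autophagy receptor p62, which rose from 955 to 1019 CPM in controls to 2965 to 3011 CPM in shRNA libraries (1.61 on the log2 scale). No strand setting is given, so reads from the shared stretch cannot be told apart, and the part of SQSTM1 in the MGAT4B rise was not tested. B4GALT1 (chromosome 9, 33104077 to 33185089), which adds galactose to the antennae, rose from 150.0, 155 and 146 CPM to 235, 236 and 237 CPM (0.65 ± 0.03; edgeR adjusted p = 9.1e-19), without overlap. MGAT4A, the paralog of MGAT4B, was below 1 CPM in all 6 libraries and was not called (0.01 ± 0.43), and MGAT3, which adds the bisecting N-acetylglucosamine, had 0 to 5 counts.

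**Figure D4:**
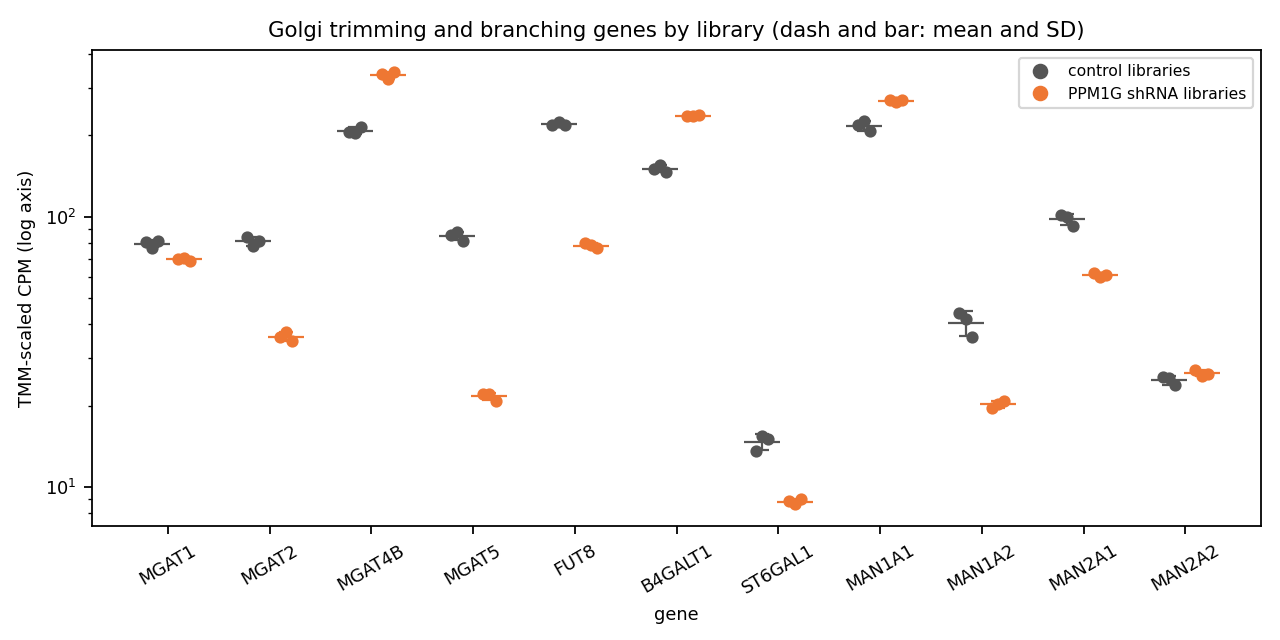
CPM on a log axis of the Golgi trimming and branching genes in each library; points are libraries, the dash is the group mean and the bar its SD. MGAT5 drops from 81.5 to 87.4 CPM in controls to 20.8 to 22.1 CPM in shRNA libraries, while MGAT4B and B4GALT1 rise.

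Within a library, the balance between these enzymes shifted by more than the spread between replicates. The FPKM ratio of MGAT4B to MGAT5 was 9.34, 9.10 and 10.3 in controls and 59.3, 57.0 and 63.9 in shRNA libraries. That of MGAT4B to MGAT2 went from 2.65 ± 0.117 to 9.56 ± 0.656, and that of B4GALT1 to ST6GAL1 from 10.4 ± 0.677 to 27.2 ± 0.556 (SD, n = 3 each). MGAT1 to MGAT2 went from 0.243 ± 0.00498 to 0.480 ± 0.0142 (SD, n = 3 each). Ratios that include MGAT4B share the limit set by its overlap with SQSTM1.

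**Figure D5:**
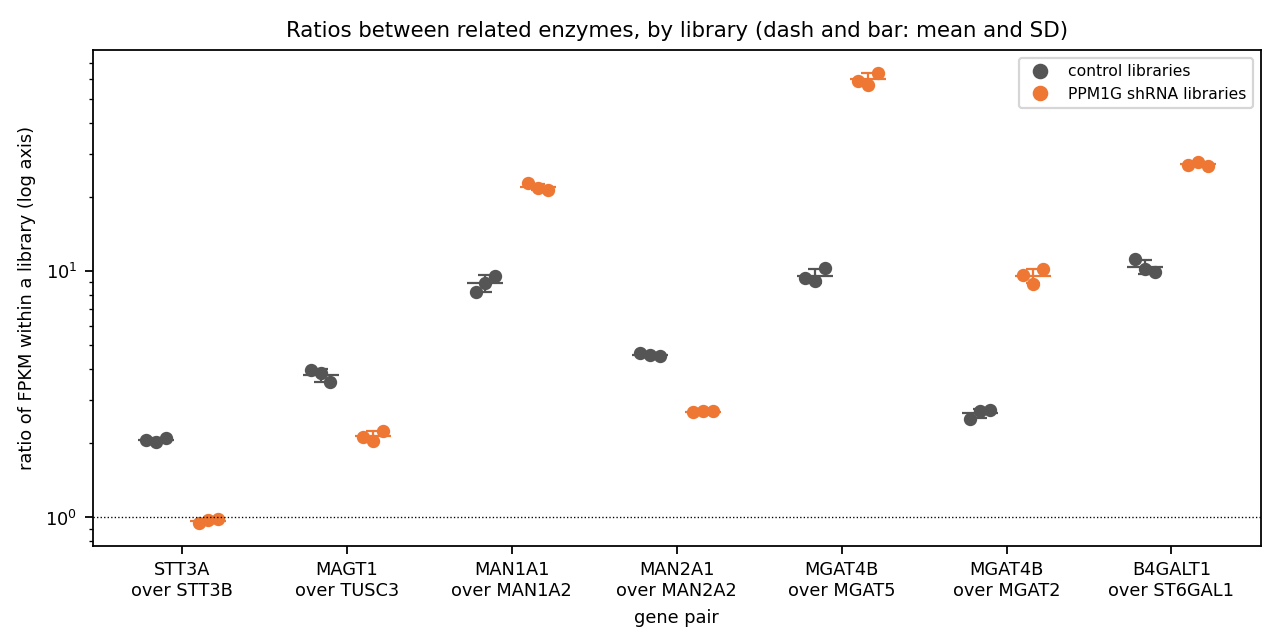
Ratios of FPKM between related enzymes in each library, on a log axis; points are libraries, the dash is the group mean and the bar its SD. All 7 ratios drawn separate the groups, and STT3A to STT3B goes from above 2 to just below 1.

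The summed FPKM of the members was lower in the shRNA libraries in 3 steps and higher in branching, where MGAT4B carried the difference. For the precursor step it was 327, 319.7 and 331 in controls and 243, 245 and 245 in shRNA libraries, 0.749 of control. For OST it was 916, 923 and 947 in controls and 601, 595 and 604 in shRNA libraries, 0.647 of control, or 0.590 without DAD1, the highest member in FPKM. The trimming sum was 0.898 of control. The branching sum was 1.22 of control, going from 178, 178 and 179.7 to 219, 215 and 221, and MGAT4B alone went from 77.2 ± 2.15 to 133 ± 3.94 FPKM (SD, n = 3). Without MGAT4B, whose counts may hold SQSTM1 reads, the branching sum did not rise: it was 102, 102 and 100.1 in controls and 85.3, 86.3 and 85.1 in shRNA libraries, 0.845 of control. All 4 step sums separated the groups, and none was tested.

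The genes lie on 17 chromosomes, with 6 each on chromosomes 1 and 9 and 5 on chromosome 11. On chromosome 9, DPM2, DOLK and DOLPP1 lie between 127935099 and 129090438 and all fell. The other members on that chromosome, ALG2 (0.16), MAN1B1 (0.52) and B4GALT1 (0.65, log2 fold changes), all rose. By annotation, 8 of the 45 genes overlap another coding gene and 18 overlap only a non-coding gene or pseudogene. Taking off the median of a gene's length class turned the direction of 0 of the called members, and 9 of the 10 falls of at least 2-fold kept that size, the exception being DPM2.

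Other genes of the route were taken from lists written from textbook knowledge. Of 28 genes for sugar donors and dolichol supply, 15 fell, 7 rose and 6 were not called, with a median log2 fold change of −0.24. The largest falls were in NANS, which makes sialic acid (−1.63 ± 0.05), NUS1, a subunit of the enzyme that makes the dolichol chain (−1.37 ± 0.05), GNPNAT1, of the route to UDP-N-acetylglucosamine (−1.33 ± 0.04), and UGP2, which makes UDP-glucose (−1.30 ± 0.05). NUS1 was at 110.3 ± 7.13 CPM in controls and 42.6 ± 1.79 CPM in shRNA libraries (SD, n = 3 each). Of the 4 other OST subunits and partners, 3 fell. MLEC, a lectin that binds glucosylated glycans beside OST, fell by far more (−1.38 ± 0.03) than the small subunits KRTCAP2 (−0.47 ± 0.05) and TMEM258 (−0.29 ± 0.07).

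Lectins and enzymes that watch over glycoprotein folding largely fell too: 12 of 16 fell, 3 rose and 1 was not called, with a median of −0.56. UGGT1, the folding sensor that puts glucose back, fell from 199.7 ± 5.29 to 79.0 ± 1.49 CPM (−1.34 ± 0.04). CALR, the lumenal chaperone that binds such glycans, fell from 1224 ± 37.6 to 524 ± 3.95 CPM (−1.23 ± 0.03; SD, n = 3 each). The cargo receptor LMAN1 (−0.99 ± 0.03) and the lectin ERLEC1 of ER disposal (−0.89 ± 0.04) also fell. Among 16 tested genes for other branches and caps, 9 fell (56.25%, against 41.3%) and 5 rose (31.25%, against 41.5%), with a median of −0.26. The largest falls were in the galactosyltransferases B4GALT6 (−2.47 ± 0.08) and B4GALT3 (−1.31 ± 0.05), opposite in direction to B4GALT1. The fucosyltransferase FUT4 (−1.26 ± 0.12) and the sialyltransferase ST3GAL3 (−0.95 ± 0.05) followed. Whether these enzymes act on N-glycans or on other substrates in these cells was not tested.

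Enzymes that use dolichol-phosphate mannose outside N-glycans moved in both directions. Of 9 such genes for glycolipid anchors, O-mannosylation and C-mannosylation, 6 rose (66.7%, against 41.5% of all tested genes). In this list 2 fell (22.2%, against 41.3%) and 1 was not called, with a median log2 fold change of 0.22. DESeq2 called 4 of them higher. DPY19L3, a C-mannosyltransferase, rose (0.61 ± 0.07), as did the protein O-mannosyltransferase POMT1 (0.48 ± 0.05). DPY19L4 (−0.46 ± 0.05) and the anchor mannosyltransferase PIGB (−0.43 ± 0.08) fell.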

How the data were processed

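RNA from 3 control and 3 PPM1G shRNA libraries of a cell line was made into SMARTER mRNA libraries, per the labels' protocols, and sequenced. The authors deposited whole-number counts per gene, not normalized, as judged from the values, and FPKM values that equal each count divided by gene length and library total (largest relative spread 5.69e-07). The submitters' processing notes name GRCh38. Which aligner, counter, annotation and strand setting were used is not given in the sources used here. Of 17534 genes, 446 had 0 counts in all libraries, and 17483 matched the RefSeq table by Entrez ID.

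Counts were fitted with edgeR 4.0.16 (R 4.3.3): its expression filter at a minimum of 10 counts, TMM factors (0.965 to 1.04), robust quasi-likelihood fit with group as the only term, and Benjamini-Hochberg adjustment over 13060 genes, called at adjusted p under 0.05. Each SE is the size of the log2 fold change over the square root of its F statistic. A positive log2 fold change means higher in shRNA libraries. The common biological coefficient of variation was 0.0393. No spike-in was used here, so levels are relative. FPKM served to compare genes within a library, for the sums by step and in the limma alternatives. Where FPKM was compared between groups, it was scaled by library total and not by TMM unless stated. The fit was also run on simulated counts in which only a small part of the genes changed. Most genes were called in these data, so that run does not check the scaling used here. Replicates differed by more than sampling noise (chi-square per degree of freedom 2.69 to 6.44), so no library was treated as a second deposit of another. This does not show that they came from separate cultures.

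The members, lists and alternatives were chosen with earlier results of these data known. The genes named are PPM1G, the members, markers, and from each other list up to 4 called genes without overlap and with the largest change. Alternatives were RLE, upper-quartile and library-total scaling, DESeq2 1.42.0, limma 3.58.1 on log2(FPKM + 1) and log2(FPKM + 0.1), other filters, a replicate block, removal of the median of each of 10 length classes, and leaving out each library. Positions and promoter windows are from RefSeq (GRCh38.p14), exons from GENCODE. KRT5 was not analysed here.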

Additional observations from a re-analysis of the deposited data

How the results depend on the processing

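Calls of all genes ranged from 10401 to 11183 across alternatives, against 10821. Of 315 comparisons of a count with an alternative, 304 stayed within 1.5 times, and of 687 comparisons of member values, 14 lost and 13 gained a call. Library totals in place of TMM shifted the median of all genes by 0.10 (log2), to 6107 rises and 4813 falls, and raised the rises to 11 for all members, 4 for the precursor step, 1 for OST, 11 for sugar donors and 1 for other OST subunits. Rises in the precursor step were also 4 with upper-quartile scaling and with limma on log2(FPKM + 1) and log2(FPKM + 0.1), and 1 to 3 when a library was left out, with 1 without shRNA library 3; both limma fits gave 1 rise among other OST subunits. Scaled by TMM, the log2 ratios of summed FPKM were −0.52 for the precursor step, −0.73 for OST, −0.25 for trimming and 0.19 for branching, against −0.42, −0.63, −0.15 and 0.29. In sums added after the values were seen, the ratio was −0.24 for branching without MGAT4B and −0.76 for OST without DAD1. Changes of sign were seen in genes that were not called: DPM1 was at 0.015 (upper quartile), 0.076 (library totals), 0.072 and 0.074 (limma with 1 and 0.1 added) and −0.052 to 0.0097 on leaving out a library, TUSC3 at −0.026 to 0.037 on leaving out a library, and MGAT4A at −0.010 in DESeq2, −0.027 with the replicate block and −0.43 to 0.29 on leaving out a library. Same-numbered libraries did not deviate together (correlations 0.05, 0.01 and −0.02), so the numbers were not taken as pairs; the replicate block gave 10805 calls, with 7 rises and 30 falls among members. Depth limits MAN1C1, MGAT3 and MGAT4A.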

Other observations

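Other glycan routes, taken from the KEGG pathway names in the authors' deposited annotation and chosen after values were seen, held genes that rose and genes that fell. Over all tested genes, 41.3% fell and 41.5% rose. For heparan sulfate, 14 of 19 tested genes fell (73.7%) and 5 rose, with a median log2 fold change of −0.84. HS6ST3, a 6-O-sulfotransferase, went from 11.3 ± 1.09 to 1.86 ± 0.450 CPM (SD, n = 3 each; −2.60), XYLT1, which starts the linker to the core protein, fell by 1.60 and EXT2, a subunit of the chain polymerase, by 1.34 on the log2 scale. Its partner EXT1 rose by 0.15. For mucin-type O-glycans, 11 of 20 tested genes fell (55.0%) and 5 rose, with a median of −0.62. GALNT12, which starts such glycans, went from 60.7 ± 2.21 to 11 ± 0.275 CPM (−2.47), and the sialyltransferase ST3GAL1 from 463 ± 9.03 to 156 ± 1.92 CPM (−1.57), while C1GALT1, the core 1 synthase, rose by 0.69. For mannose-type O-glycans, 11 of 19 tested genes fell (57.9%) and 6 rose, with a median of −0.23.

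For the glycolipid (GPI) anchor, 16 of 24 tested genes fell (66.7%) and 5 rose, with a median of −0.20. PIGU, of the transamidase that attaches the anchor, went from 29.7 ± 1.38 to 7.24 ± 0.0528 CPM (−2.04), and PIGH, of the first enzyme, rose by 0.81. For chondroitin and dermatan sulfate, 10 of 19 tested genes fell (52.6%) and 5 rose. CHST3, a 6-O-sulfotransferase, went from 23.0 ± 0.347 to 80.3 ± 1.93 CPM (1.81) and CHST7, of similar activity, from 18.9 ± 1.15 to 4.24 ± 0.532 CPM (−2.15). All named changes passed the edgeR threshold, and DPM2 is a member of the GPI-anchor list too.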
